A study of Mus musculus with 30 samples.

Results

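Tumor necrosis factor (*Tnf*), its receptors *Tnfrsf1a* and *Tnfrsf1b*, the 5 NF-kB subunit genes *Rela*, *Rel*, *Relb*, *Nfkb1* and *Nfkb2*, and the feedback inhibitors *Nfkbia* and *Tnfaip3* were followed in RNA-seq counts from whole bone marrow (BM) cells and from F4/80+ macrophages sorted from visceral adipose tissue (ATMs). The 10 genes were picked out by their symbols, and all 10 were present in both tables of counts, among 13353 genes in BM and 17059 genes in ATMs. Each tissue had 15 libraries in 5 groups of 3. WT libraries came from wild-type C57BL/6 recipients with no treatment named, and the Vehicle, GLP1, anti-IL17A and Combo libraries came from leptin-deficient LepOb/Ob (Ob/Ob) recipients. All recipients were irradiated (700 cGy and then 400 cGy) and, by the description of the series, given equal numbers of CD45.2+ BM cells of Shp2E76K/+;LysM-Cre+ donors and CD45.1+ BM cells of Boy/J competitors. Shp2E76K is an activating mutant of the phosphatase SHP2, and LysM-Cre switches it on in myeloid cells, so a library mixes mutant cells with cells that carry no mutation. From 8 weeks after transplantation, Ob/Ob recipients received for 30 days either vehicle, the GLP-1 receptor agonist beinaglutide (3 mg/kg under the skin), an antibody against IL-17A (200 µg per mouse into the peritoneum, 3 times a week) or both agents. Per the labels, mice of both sexes aged about 12 to 14 weeks were used, whereas the methods give an age at irradiation instead, and the age at harvest is not stated in either. Also per the labels, every library is of genotype C57BL/6J and Batch 1, and a group holds 3 mice. A figure legend of the study sets ATMs of Ob/Ob recipients of mutant cells against those of WT cells. Another legend names WT and Ob/Ob mice bearing mutant cells. The donor of the WT ATM libraries, and by the first legend their recipient, is thus uncertain. Vehicle vs WT, as labeled, therefore differs in recipient genotype, in vehicle treatment and, in ATMs, possibly in donor. It may also differ in time since transplantation, which is not named for the WT libraries. The share of female cells differed too, as given below, and none of these can be told apart.

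TNF is a cytokine made mainly by macrophages and other myeloid cells, cut from the cell surface by the protease ADAM17. It binds TNFR1 (*Tnfrsf1a*), found on most cells, and TNFR2 (*Tnfrsf1b*), found mostly on leukocytes, and through TRAF and RIPK1 proteins activates the IKK kinases, which mark the inhibitor IkBα (*Nfkbia*) for breakdown and so release NF-kB dimers into the nucleus. NF-kB in turn drives *Nfkbia* and *Tnfaip3* (A20), which shut the signal off, and *Relb*, *Nfkb2* and *Tnf* itself are also known NF-kB targets. TNF and NF-kB are well known for their part in adipose tissue inflammation in obesity and in myeloid leukemia.

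Sequences upstream of the transcription starts are shown because some of the 10 genes are known NF-kB targets. Those printed are *Nfkbia*, *Tnfaip3* and *Rel*, which hold a match to the κB consensus, and *Tnf*, which holds none. The choice thus does not follow how far the genes moved. They come from RefSeq windows of 250 bases before to 50 bases after a start (GRCm38.p6). In 8 of the 10 genes a window was held, *Nfkb1* and *Relb* being the others. Capitals mark letters that match the κB consensus on either strand, with overlapping matches joined, and all 4 sequences run 5′ to 3′ on the minus strand, which is the strand of these genes. *Nfkbia* (chr12:55492648-55492797, bases -150 to -1 before its start), *Tnfaip3* (chr10:19015411-19015547, -137 to -1), *Rel* (chr11:23770971-23771119, -150 to -2) and *Tnf* (chr17:35202008-35202157, -150 to -1) read as follows.
Nfkbia: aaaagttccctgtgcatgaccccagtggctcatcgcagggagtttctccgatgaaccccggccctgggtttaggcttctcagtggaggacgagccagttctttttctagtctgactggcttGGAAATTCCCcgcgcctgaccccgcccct
Tnfaip3: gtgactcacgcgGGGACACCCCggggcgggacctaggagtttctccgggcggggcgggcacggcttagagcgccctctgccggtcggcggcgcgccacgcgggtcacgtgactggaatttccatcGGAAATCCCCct
Rel: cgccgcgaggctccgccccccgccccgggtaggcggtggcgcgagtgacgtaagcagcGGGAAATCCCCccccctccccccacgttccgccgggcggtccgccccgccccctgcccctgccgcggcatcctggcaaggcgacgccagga
Tnf: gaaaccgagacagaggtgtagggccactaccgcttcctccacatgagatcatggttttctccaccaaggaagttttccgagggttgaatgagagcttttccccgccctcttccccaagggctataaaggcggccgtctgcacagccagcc
The *Nfkbia* match lay at -29 to -20, the *Tnfaip3* matches at -125 to -116 and -12 to -3, and the *Rel* match at -92 to -82. In *Nfkb2* (plus strand, 3 windows) the matches included GGGAATTCCCC at -39 to -29 and GGGGCTTTCC at -11 to -2 of the outermost start of these windows. All 150 bases before that start lie in *Nfkb2* exon by GENCODE M21, where the gene begins further out, at 46304320. No match was found in the windows of *Tnf*, *Tnfrsf1a*, *Tnfrsf1b* or *Rela*, which says only that these letters are not in these windows. A match was thus held by 4 of 8 genes (50%), against 2581 of 27025 genes with a window (9.55%). A match is a description of the sequence and not a measured binding site.

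BM libraries held 31086184 to 39925495 counts on genes and ATM libraries 24876074 to 45300263. Replicates varied far less in BM (biological coefficient of variation 3.51% over all genes) than in ATMs (32.5%), so smaller changes passed the test in BM. The labels name 3 mice per group. Whether the libraries of a group hold the full spread between mice was not tested in either tissue. P values would be too small if they do not. The WT 1 library of BM stood apart from its replicates, with 669464 normalized counts of *Rn45s* (ribosomal RNA precursor) against 218220 and 250446, and BM results are also given without it. Markers of cell type did not stay level. In ATMs the summed counts of 10 macrophage markers ranged from 104030 to 112334 in Vehicle and from 142034 to 150109 in WT libraries, and 9 measured neutrophil markers from 661889 to 701164 against 14794 to 15136. Members of the macrophage list did not all move alike. In Vehicle against WT, *Csf1r* (mean 1579 against 18150) and *C1qa* (3847 against 9355) were lower. By contrast, *Cd68* (17462 against 8681) and *Mertk* (1410 against 953) were higher. *Adgre1*, which encodes F4/80 itself, was at 1002 to 1738 in Vehicle and at 6387 to 7619 in WT ATM libraries, the lowest of the 5 groups in a sort for F4/80. The summed counts of 11 interferon-stimulated genes ranged from 808641 to 831252 in Vehicle ATM libraries and from 15671 to 30328 in the other groups, and from 212746 to 213789 in Vehicle BM libraries against 7733 to 18522. *Xist*, expressed from the inactive X chromosome of female cells, was at 6339 to 6712 in Vehicle and 3528 to 3657 in Combo BM libraries but at 0 to 113 in the other groups. In ATMs it was at 998 to 1533 and 1041 to 1264 against 0 to 40.6. The Y-linked *Ddx3y* was at 695 to 743 in Vehicle and 147 to 177 in Combo BM libraries against 1460 to 2015 in the others. The share of female cells thus moved with the groups, and *Xist* and *Ddx3y* ranked Vehicle and Combo BM differently. Other tissue also entered the ATM libraries unevenly, since 7 measured epididymis genes summed to 99654 to 104445 in WT but 0 to 71.8 in Vehicle libraries, and 10 pancreatic acinar genes to 39074 to 39647 in Combo but 252 to 916 in the other groups. The part of any of these in the results below was not tested. In bulk RNA, fewer cells of a type and less RNA in each of them cannot be told apart, which holds for every result below.

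*Tnf* (chromosome 17, 35199381 to 35202007, minus strand), the ligand, was highest in Vehicle libraries of both tissues. In ATMs it measured 1952, 1497 and 1737 normalized counts in WT libraries (1729 ± 228, SD, n = 3) and 21235, 19207 and 21218 in Vehicle libraries (20553 ± 1166). A normalized count is a count scaled to the mean effective library size of the tissue. *Tnf* thus rose 11.9-fold (log2 3.57, standard error 0.105, adjusted p = 1.28e-13, edgeR). In treated ATMs it was lower in every library than in any Vehicle library, at 2799, 3373 and 2781 with GLP1 (2985 ± 337), 2144, 2419 and 2155 with anti-IL17A (2239 ± 156), and 2874, 2682 and 2527 with Combo (2694 ± 174). The fall from Vehicle was 6.89-fold with GLP1, 9.18-fold with anti-IL17A and 7.63-fold with Combo (log2 fold changes -2.78, -3.20 and -2.93, adjusted p = 2.08e-12, 3.95e-13 and 1.3e-12, edgeR). All 3 treated groups stayed above WT, by log2 0.79, 0.37 and 0.64 (adjusted p = 1.11e-05, 0.00658 and 6.92e-05, edgeR), and no treated library overlapped a WT library.

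In BM the spread of *Tnf* over the groups was smaller. WT libraries held 767, 725 and 742 normalized counts (745 ± 21.1) and Vehicle libraries 1515, 1555 and 1664 (1578 ± 77.1), a 2.12-fold rise (log2 1.08, standard error 0.0532, adjusted p = 3.38e-21, edgeR), or log2 1.10 without the WT 1 library. GLP1 libraries held 1083, 1054 and 1014 (1050.0 ± 34.6), anti-IL17A libraries 1127, 1192 and 1176 (1165 ± 34.1) and Combo libraries 1092, 1089 and 1173 (1118 ± 47.7). Treated BM libraries thus lay between WT and Vehicle without overlap with either, with log2 fold changes from Vehicle of -0.59, -0.44 and -0.50 (adjusted p = 2.54e-13, 5.27e-10 and 2.52e-11, edgeR) and from WT of 0.50, 0.65 and 0.58. Combo differed from neither single agent past the threshold in BM (log2 0.09 against GLP1, adjusted p = 0.123, and -0.06 against anti-IL17A, adjusted p = 0.336, edgeR, 95% CI -0.17 to 0.04). In ATMs Combo was log2 0.27 above anti-IL17A (adjusted p = 0.0498, edgeR) and -0.15 against GLP1 (adjusted p = 0.255, 95% CI -0.35 to 0.06). The summed macrophage markers named above went the other way from *Tnf* in ATMs, at 349159 to 509102 in the 3 treated groups. Of this list, *Cd68* and *Mertk* were nevertheless higher in Vehicle than in WT ATMs. The neutrophil and interferon sums went with *Tnf* from WT to Vehicle. In Combo ATMs the neutrophil sum was still at 354830 to 363940 while *Tnf* was at 2527 to 2874, whereas the interferon sum was back at 28949 to 29818. The summed counts of 10 adipocyte markers were, like *Tnf*, highest in Vehicle ATMs, at 155720 to 164834 in Vehicle and 44588 to 52428 in the other groups, although 3 of the 10 passed the threshold as higher and 5 as lower in Vehicle than in WT. The part of these markers in the *Tnf* result was not tested.

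**Figure D1:**
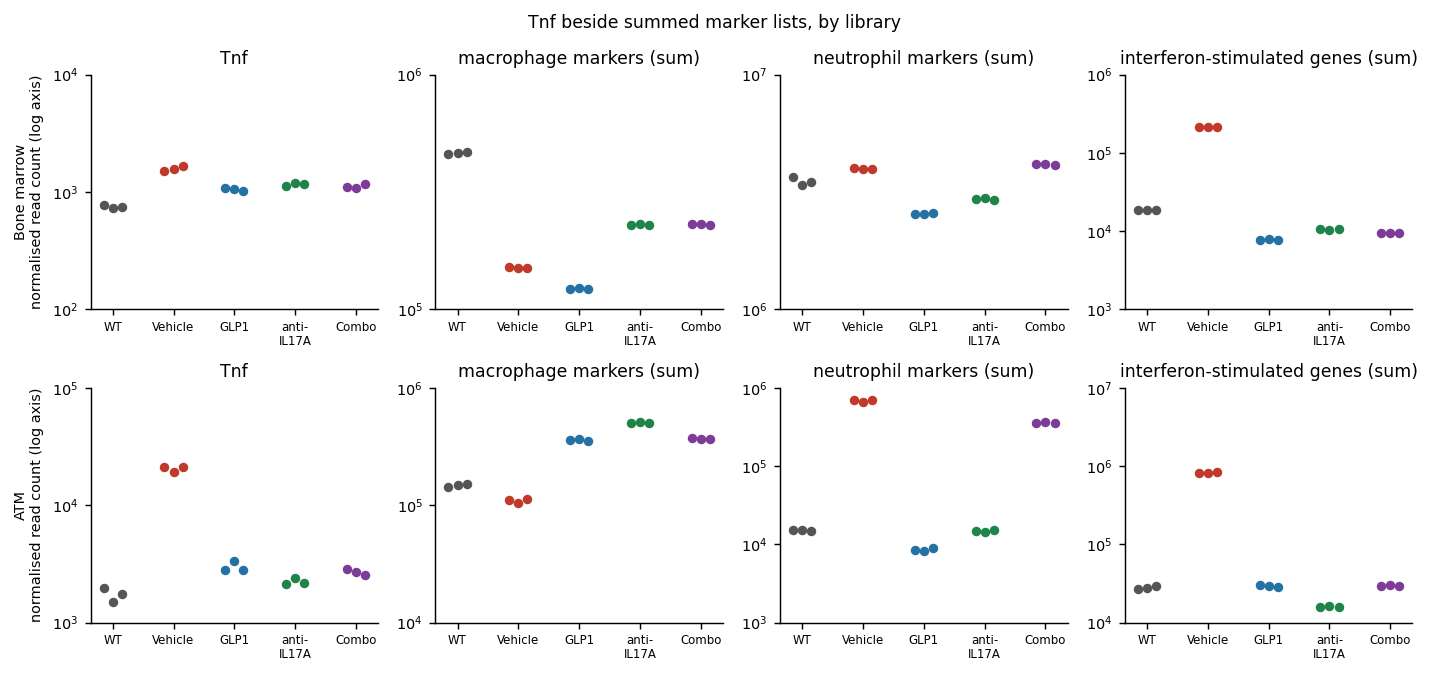
Normalized counts of *Tnf* and summed normalized counts of macrophage markers, neutrophil markers and interferon-stimulated genes (log axes) in each of the 15 BM libraries (upper row) and 15 ATM libraries (lower row), 1 point a library, by group. In ATMs the 3 Vehicle points of *Tnf* lie at 19207 to 21235, above all other libraries, where the neutrophil sum is 661889 to 701164 and the macrophage sum, at 104030 to 112334, is the lowest.

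Of the receptors, TNFR1 (*Tnfrsf1a*, chromosome 6, 125349362 to 125362484, plus strand) and TNFR2 (*Tnfrsf1b*, chromosome 4, 145213463 to 145246870, minus strand) both rose from WT to Vehicle in ATMs and parted under treatment. *Tnfrsf1a* measured 5177, 5454 and 5596 normalized counts in WT ATMs and 13642, 12989.5 and 14054 in Vehicle ATMs (13562 ± 537), which was higher by log2 1.33 (adjusted p = 1.89e-12, edgeR). It was lower in all 3 treated groups, at 7931 ± 175 with GLP1, 5686 ± 112 with anti-IL17A and 5847 ± 248 with Combo. The anti-IL17A and Combo groups did not differ from WT past the threshold (adjusted p = 0.27 and 0.0791, edgeR, 95% CI of Combo vs WT 0.01 to 0.22). Without Combo 1, Combo vs WT for *Tnfrsf1a* passed it (adjusted p = 0.0403, edgeR). *Tnfrsf1b* measured 7974, 8493 and 8538 in WT ATMs and 26379, 25597 and 28099.7 in Vehicle ATMs, a 3.2-fold rise (log2 1.68, adjusted p = 2.76e-13, edgeR). With GLP1 it stayed as high, at 26831, 26230.5 and 27519.9, overlapping the Vehicle libraries (log2 0.01, 95% CI -0.10 to 0.12, adjusted p = 0.902, edgeR), and the sign of this small difference turned with the scaling. With anti-IL17A it was at 17059 ± 202 and with Combo at 14083, 12092 and 13215 (13130.2 ± 998), both below Vehicle (log2 -0.65 and -1.02). Combo lay below each single agent for *Tnfrsf1b*, with log2 -1.03 against GLP1 and -0.38 against anti-IL17A (adjusted p = 2.74e-10 and 3.77e-05, edgeR).

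In BM the receptors moved less. *Tnfrsf1b* was at 3431, 3742 and 3402 in WT and at 5863, 5803 and 5655 in Vehicle libraries (log2 0.71, standard error 0.0331, adjusted p = 5.19e-22, edgeR) and between these in the 3 treated groups (4492 to 4958), without overlap. *Tnfrsf1a* was at 5661, 5995 and 5605 in WT and at 6054, 6302 and 6395 in Vehicle libraries, a small rise (log2 0.12, adjusted p = 0.000291, edgeR). It was highest with Combo, at 8507, 8809 and 8499.5 (8605 ± 177), log2 0.46 above Vehicle and 0.54 above GLP1 (adjusted p = 5.32e-18 and 2.64e-20, edgeR). So in BM the Combo libraries held the most *Tnfrsf1a* and in ATMs the Vehicle libraries did. In BM the summed macrophage markers were at 149464 to 150939 in Vehicle against 458449 to 468381 in WT libraries, although 6 of the 10 markers were past the threshold as higher in Vehicle and 3 as lower, and their part in the receptor results was not tested.

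Both feedback inhibitors rose from WT to Vehicle and fell with each treatment in both tissues. *Nfkbia* (chromosome 12, 55489410 to 55492647), which encodes the inhibitor IkBα, measured 4458, 4477 and 4400.3 normalized counts in WT BM and 18554, 18602 and 18815 in Vehicle BM, a 4.2-fold rise (log2 2.07, standard error 0.0275, adjusted p = 3.71e-41, edgeR). Treated BM libraries ranged from 4336 to 6179.9, which overlaps WT for anti-IL17A only (4376, 4604 and 4336, log2 -0.00, adjusted p = 0.952, edgeR) and lies above WT for GLP1 (log2 0.39) and Combo (log2 0.44). In ATMs *Nfkbia* measured 32188, 31672 and 32373 in WT and 153165, 137678 and 147723 in Vehicle libraries (log2 2.19, standard error 0.0374, adjusted p = 1.92e-16, edgeR). It fell in every treated group, to 38453 ± 895 with GLP1, 29251 ± 933 with anti-IL17A and 37898 ± 396 with Combo, log2 fold changes of -1.93, -2.32 and -1.95 from Vehicle. In both tissues *Nfkbia* with anti-IL17A was thus the lowest of the treated groups, and GLP1 and Combo did not differ past the threshold (adjusted p = 0.0562 in BM and 0.693 in ATMs, edgeR).

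*Tnfaip3* (chromosome 10, 19000910 to 19015657) encodes A20, which removes ubiquitin from RIPK1 and so ends TNFR1 signaling. In BM it measured 1118, 1063 and 1222 in WT and 2956, 2882 and 2880.3 in Vehicle libraries (log2 1.36, adjusted p = 9.25e-26, edgeR). Under treatment it fell below WT, to 634, 664 and 708 with GLP1, 852, 849.5 and 861 with anti-IL17A, and 575, 609.9 and 605 with Combo. Combo was below Vehicle and below WT (log2 -2.28 and -0.93, adjusted p = 1.89e-32 and 4.82e-18, edgeR), and no library of a treated group reached the lowest WT library. In ATMs it measured 22326, 23087 and 22831 in WT and 85283, 83524 and 76749.5 in Vehicle libraries (log2 1.85, adjusted p = 3.18e-14, edgeR). There the treated groups stayed above WT, at 41882 ± 455 with GLP1, 32052 ± 2434 with anti-IL17A and 37618 ± 667 with Combo, which was log2 0.73 above WT (adjusted p = 5.39e-09, edgeR). *Tnfaip3* under Combo was therefore below WT in BM and above WT in ATMs.

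**Figure D2:**
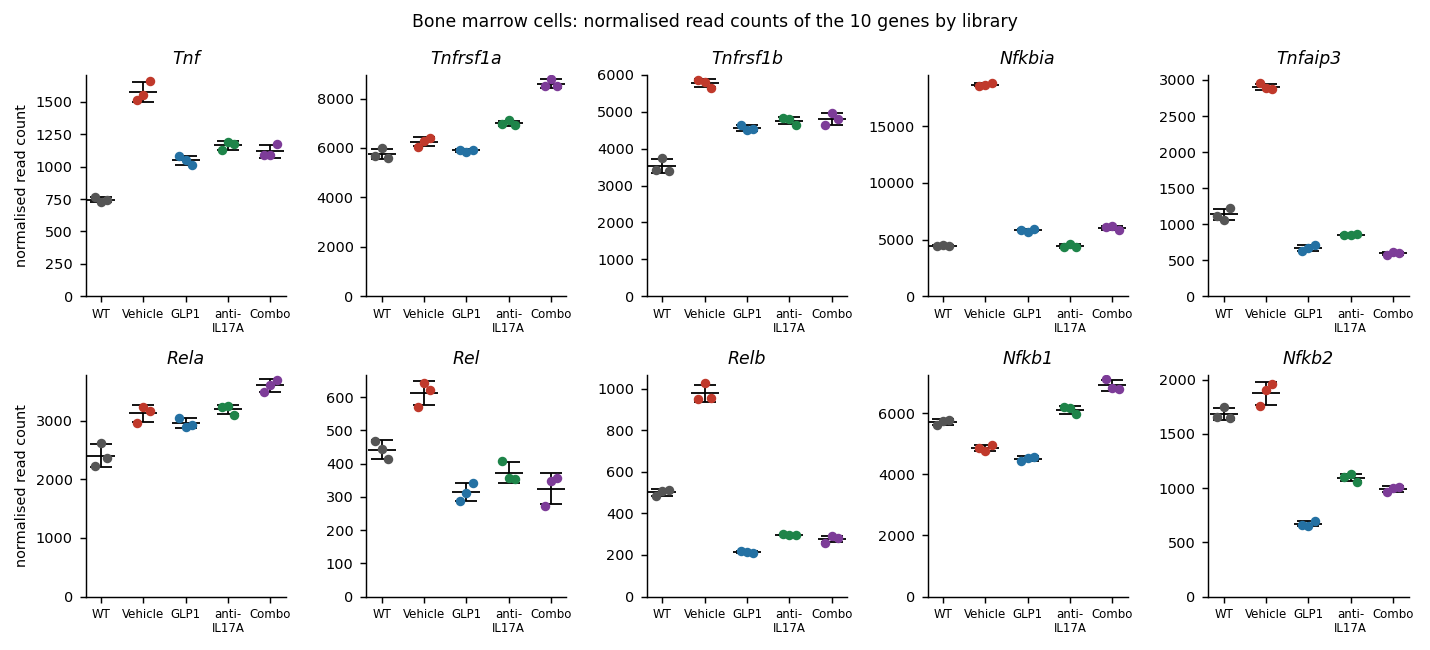
Normalized counts of the 10 genes in BM cells by group (axes from 0), 1 point a library, with the group mean and SD as bars (n = 3). *Nfkbia* stands at 18554 to 18815 in Vehicle and at 4336 to 6179.9 in all other libraries, whereas *Nfkb1*, *Rela* and *Tnfrsf1a* are highest with Combo.

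**Figure D3:**
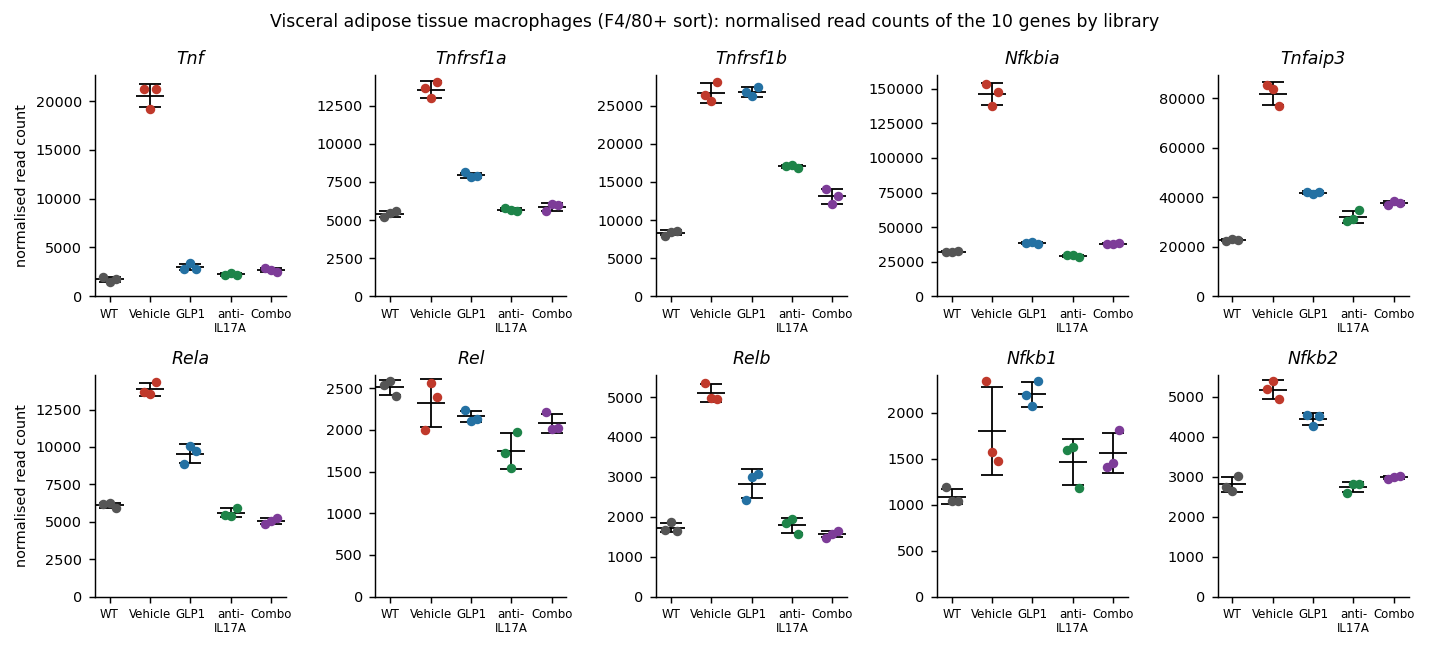
Normalized counts of the 10 genes in ATMs by group (axes from 0), 1 point a library, with the group mean and SD as bars (n = 3). *Tnf* and *Nfkbia* are set apart in Vehicle, at 19207 to 21235 and 137678 to 153165, while *Tnfrsf1b* is as high with GLP1 as with Vehicle and *Rel* shows little change.

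Of the subunits, *Rela* (chromosome 19, 5637483 to 5648130) encodes p65, the transactivating partner of the canonical dimer. In ATMs it measured 6164, 6238 and 5917 in WT and 13648, 13562 and 14349 in Vehicle libraries (log2 1.18, adjusted p = 5.89e-11, edgeR). It was lower in the treated groups, at 9550.4 ± 636 with GLP1, 5605 ± 302 with anti-IL17A and 4853, 5058 and 5226 with Combo, where it was also below WT (log2 -0.28, adjusted p = 0.00104, edgeR). In BM *Rela* went another way under treatment, from 2235, 2619.6 and 2356 in WT and 2965, 3233 and 3173 in Vehicle to 3489, 3615 and 3700.5 in Combo libraries. BM Combo was log2 0.21 above Vehicle (adjusted p = 7.4e-05, edgeR), and neither single agent differed from Vehicle past the threshold for *Rela* (GLP1 adjusted p = 0.0969, 95% CI -0.17 to 0.01, and anti-IL17A adjusted p = 0.527, 95% CI -0.06 to 0.12). For GLP1 this call turned with 1 library, at an adjusted p of 0.0262 without Vehicle 1.

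*Nfkb1* (chromosome 3, 135584655 to 135691547) encodes p105 and its processed form p50. It was the only one of the 10 genes lower in Vehicle than in WT BM past the threshold, at 4863, 4752 and 4959 against 5612, 5743 and 5774 (log2 -0.23, adjusted p = 2.11e-09, edgeR). BM Combo libraries held the most, at 7123, 6830.1 and 6795 (6916 ± 179.9), log2 0.51 above Vehicle (adjusted p = 2.74e-19, edgeR). In ATMs it was the least expressed of the 10 per kb and its replicates were wide, at 1189, 1039 and 1038 in WT and 2346, 1575 and 1474 in Vehicle libraries (log2 0.72, standard error 0.171, adjusted p = 0.00199, edgeR). None of the 3 treatments differed from Vehicle past the threshold there, and the libraries overlapped (GLP1 2191, 2069 and 2342, anti-IL17A 1590.3, 1628 and 1179, Combo 1562 ± 222). These ATM values hung on single libraries. Without Vehicle 1, GLP1 vs Vehicle was log2 0.53 (adjusted p = 0.0084, edgeR) and Combo vs Vehicle turned to 0.04, and without Vehicle 3, anti-IL17A vs Vehicle was -0.43 (adjusted p = 0.0487, edgeR). Combo vs WT, at log2 0.52 (adjusted p = 0.0225, edgeR), was lost without WT 2, WT 3 or Combo 3 (adjusted p = 0.071, 0.0703 and 0.105).

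*Rel* (chromosome 11, 23736847 to 23770970) encodes c-Rel, the subunit of lymphoid and activated myeloid cells. In BM it measured 469, 442 and 415 in WT and 570.4, 641 and 623 in Vehicle libraries (log2 0.47, adjusted p = 1e-05, edgeR), and 314 ± 26.8 with GLP1, 373 ± 31.3 with anti-IL17A and 272, 347 and 356 with Combo. All 3 treated groups were below Vehicle without overlap, and Combo was below WT (log2 -0.45, adjusted p = 5.04e-05, edgeR). In ATMs *Rel* was the 1 gene of the 10 that did not pass the threshold between Vehicle (1999.8, 2564 and 2389) and WT (2536, 2580.4 and 2411) (log2 -0.11, 95% CI -0.33 to 0.10, adjusted p = 0.358, edgeR). It fell with anti-IL17A, to 1748 ± 215 (log2 -0.41, adjusted p = 0.00325, edgeR). Combo vs WT was log2 -0.27 at an adjusted p of 0.0457 (edgeR), and that call was lost without WT 1, WT 2, WT 3, Combo 2 or Combo 3 (adjusted p = 0.0608 to 0.123), with a stricter count filter and with replicate number as a block.

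*Relb* (chromosome 7, 19606217 to 19629438) and *Nfkb2* (chromosome 19, 46304320 to 46312385, p100 and its processed form p52) encode the partners of the noncanonical dimer. *Relb* in BM measured 483, 509.8 and 514 in WT and 948, 1026 and 956 in Vehicle libraries (log2 0.96, adjusted p = 7.53e-16, edgeR). It then fell to 218, 213 and 212 with GLP1, 298, 294 and 296 with anti-IL17A and 258, 289 and 282 with Combo, each below every WT library. The largest of these changes from Vehicle was log2 -2.19 with GLP1 (adjusted p = 3.17e-26, edgeR). In ATMs *Relb* measured 1671, 1861 and 1652 in WT and 5362, 4983 and 4947 in Vehicle libraries (log2 1.56, adjusted p = 3.21e-09, edgeR). It was at 2830.0 ± 363 with GLP1, above WT, and at 1783 ± 189 with anti-IL17A and 1476, 1573 and 1640.4 with Combo, where the difference from WT did not pass the threshold (adjusted p = 0.764 and 0.284, edgeR). *Nfkb2* in BM rose little from WT (1654, 1751 and 1642) to Vehicle (1755, 1899.7 and 1960.2, log2 0.15, adjusted p = 0.00407, edgeR) but fell to 658, 655 and 697 with GLP1 and to 961, 1001 and 1014 with Combo (log2 -1.48 and -0.92, adjusted p = 4.46e-26 and 1.79e-19, edgeR). In ATMs *Nfkb2* went from 2739, 2647 and 3021 in WT to 5192, 5394 and 4942 in Vehicle (log2 0.89, adjusted p = 1.23e-08, edgeR), fell less with GLP1, to 4551, 4265 and 4502 (log2 -0.22, adjusted p = 0.0098, edgeR), and was at 2737 ± 133 with anti-IL17A and 2985 ± 37.5 with Combo. Of its exon length, 18.1% is shared with *Psd* and an unnamed gene model, and reads there were counted for each gene. The marker sums given with *Tnf* moved with the groups for the subunits too, and their part was not tested.

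Counted over the 10 genes, Vehicle vs WT in BM gave 9 higher and 1 lower at a false discovery rate (FDR) below 0.05, against 37.8% and 38.8% of all genes, with a median log2 fold change of 0.59 against -0.02 over all genes. Of these, 3 (*Tnf*, *Tnfaip3* and *Nfkbia*) also changed by more than 2-fold, against 19.5% of all genes. In ATMs 9 were higher and 0 lower, against 24.3% and 32.6% of all genes, and 7 changed by more than 2-fold, against 35.4%. The ATM median was 1.44 for the 10 genes and -0.21 over all genes. The exception in ATMs was *Rel*, and the 2 others under 2-fold were *Nfkb1* and *Nfkb2*. Without the WT 1 library, all 10 genes still passed the FDR in BM and the same 3 were over 2-fold.

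Most of the 10 genes fell from Vehicle with each treatment. GLP1 vs Vehicle in BM gave 0 higher and 9 lower (36.5% and 36.3% of all genes) with 4 over 2-fold (16.7% of all genes), and in ATMs 0 higher and 7 lower (31.8% and 22.0%) with 2 over 2-fold (31.8%). Anti-IL17A vs Vehicle in BM gave 2 higher and 7 lower (36.4% and 36.6%) with 3 over 2-fold (16.1%), and in ATMs 0 higher and 9 lower (33.1% and 25.0%) with 6 over 2-fold (35.5%). Combo vs Vehicle in BM gave 3 higher and 7 lower (37.9% and 35.8%) with 3 over 2-fold (17.7%), and in ATMs 0 higher and 8 lower (25.0% and 23.7%) with 7 over 2-fold (26.4%). The genes higher in BM were *Tnfrsf1a* and *Nfkb1* with anti-IL17A, and these and *Rela* with Combo. Median log2 fold changes under Combo were -0.70 in BM and -1.17 in ATMs, against 0.02 and 0.00 over all genes. These comparisons share the Vehicle libraries with Vehicle vs WT, so opposite signs in both are not independent of each other.

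Against WT, Combo left 6 genes higher and 4 lower in BM (36.1% and 37.2% of all genes) and 5 higher and 2 lower in ATMs (17.8% and 23.2%), and 0 of the 10 differed by more than 2-fold in either tissue (14.3% and 21.6% of all genes). By edgeR all 10 passed the FDR in BM and 7 in ATMs, so 0 is a count of large changes only. The 4 lower genes in BM were *Tnfaip3*, *Nfkb2*, *Rel* and *Relb* (log2 -0.45 to -0.93), and the 2 in ATMs were *Rel* and *Rela* (-0.27 and -0.28). The widest of the 10 above WT were *Tnf*, *Tnfrsf1a* and *Rela* in BM, each at log2 0.58, and *Tnfaip3* in ATMs at 0.73.

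**Figure D4:**
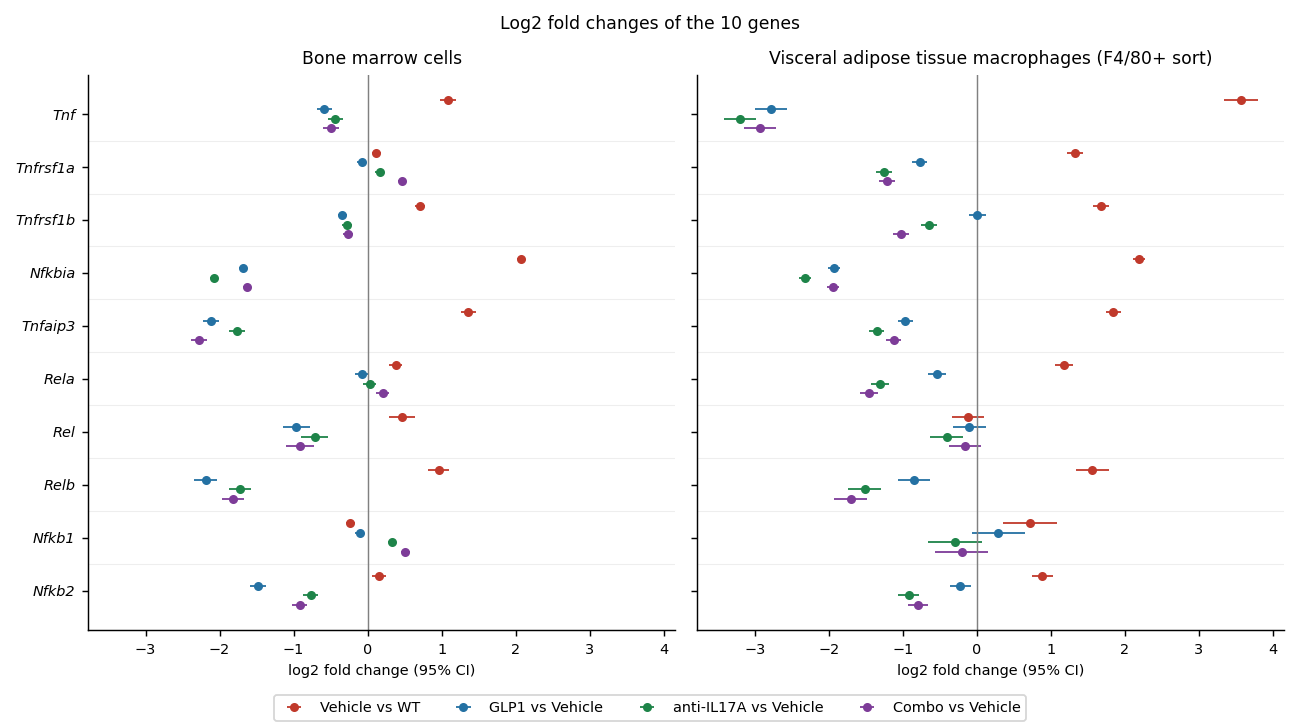
Log2 fold changes of the 10 genes with 95% confidence intervals (bars) in BM cells (left) and ATMs (right), for Vehicle vs WT and for GLP1, anti-IL17A and Combo vs Vehicle (edgeR, n = 3 per group). *Tnf* spans from 3.57 to -3.20 in ATMs but only from 1.08 to -0.59 in BM, and *Nfkbia* has like values in both.

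Over the 5 groups, Vehicle was the highest for 7 of the 10 genes in each tissue. In BM the exceptions were *Tnfrsf1a*, *Nfkb1* and *Rela*, highest with Combo, and in ATMs *Tnfrsf1b* and *Nfkb1*, highest with GLP1, and *Rel*, highest in WT. The lowest group in BM was WT for 4 genes, GLP1 for 4, anti-IL17A for 1 and Combo for 1, and in ATMs WT for 5, anti-IL17A for 3 and Combo for 2. The highest and lowest groups were not counted over all genes, so these counts do not set the 10 genes apart from others. Many neighbors in these orders did not differ past the threshold. For *Tnf* in BM the order was Vehicle, anti-IL17A, Combo, GLP1 and WT, with anti-IL17A not separated from Combo nor Combo from GLP1, and in ATMs it was Vehicle, GLP1, Combo, anti-IL17A and WT, with GLP1 and Combo not separated. For *Nfkb1* and *Rel* in ATMs no neighbor was separated from the next. For *Tnfaip3* every neighbor was separated in both tissues.

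Per kb of exon length, *Nfkbia* had the highest level of the 10 genes in every group, from 2757 to 11588 normalized counts per kb in BM and from 18169 to 90800.5 in ATMs. The lowest was *Rel* in BM (42.0 to 81.9 per kb) and *Nfkb1* in ATMs (90.3 to 182 per kb). The receptors followed *Nfkbia* in every BM group, with *Tnfrsf1a* at 2221 to 3321 and *Tnfrsf1b* at 923 to 1512 per kb. In ATMs the level of *Tnf* went from 1055 per kb in WT, the sixth of the 10, to 12540.0 per kb in Vehicle, the second after *Nfkbia*.

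Combo was also set against the sum of both single-agent changes on the log2 scale, where 0 means that the changes add up. In BM all 10 genes departed from additivity, all upward, against 68.6% of all genes past the FDR, so for each gene Combo lay above the sum of both changes. The shares over all genes given here count both directions. Vehicle enters this measure with a plus sign, so upward departures are not independent of the falls from Vehicle given above. The widest departures were those of *Nfkbia* (log2 2.13, adjusted p = 3.04e-36), *Relb* (2.09, adjusted p = 1.71e-19) and *Tnfaip3* (1.60, adjusted p = 4.33e-21, edgeR). In ATMs 8 of 10 departed, against 50.5% of all genes, 7 upward, with *Tnf* at 3.05 (adjusted p = 3.68e-11) and *Nfkbia* at 2.30 (adjusted p = 6.21e-15, edgeR). The exception was *Tnfrsf1b* in ATMs, where Combo lay below the sum of the single agents (log2 -0.39, adjusted p = 0.00035, edgeR). For *Nfkb1* and *Rel* in ATMs the departure did not pass the threshold (adjusted p = 0.521 and 0.0552, edgeR).

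The changes differed between the tissues for most of the genes, by a test of the difference itself over 13076 genes in both tables (limma). Vehicle vs WT differed for all 10 genes, against 53.0% of all genes, and was larger in ATMs for 9 of them, by log2 2.51 for *Tnf* (adjusted p = 5.28e-22, limma) but only by 0.12 for *Nfkbia* (adjusted p = 0.0257, limma). Combo vs Vehicle differed for 8 of 10, against 52.6% of all genes, and not past the threshold for *Nfkb2* and *Relb*. The sign of the Combo change itself was opposite in the tissues, and past the threshold in both, for *Tnfrsf1a* (log2 0.46 in BM and -1.21 in ATMs) and *Rela* (0.21 and -1.46). For *Nfkb1* the signs were opposite too (0.51 and -0.20), but the ATM change did not pass the threshold (adjusted p = 0.349, edgeR).

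The other genes of the pathway, 90 outside the 10 in 6 lists, were counted in the same fits, 89 of them measured in BM. In Vehicle vs WT, 56 were higher and 21 lower in BM and 62 higher and 12 lower in ATMs, with median log2 fold changes of 0.39 and 1.02. In Combo vs Vehicle, 18 were higher and 61 lower in BM (median -0.45) and 13 higher and 53 lower in ATMs (median -0.89). Shares over all genes were 37.8% higher and 38.8% lower in BM and 24.3% and 32.6% in ATMs for Vehicle vs WT, and 37.9% and 35.8% in BM and 25.0% and 23.7% in ATMs for Combo vs Vehicle. The list that moved furthest was that of NF-kB targets, with 14 of 20 higher and 5 lower in BM (median 1.37) and 17 of 20 higher and 3 lower in ATMs (median 1.86) in Vehicle vs WT, and 15 and 19 lower in Combo vs Vehicle (medians -1.44 and -1.54).

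Among the targets, *Cxcl10*, a chemokine for T cells that interferons also induce, went from 48.5 ± 11.9 normalized counts in WT BM to 9323 ± 212 in Vehicle and 39.0 ± 3.90 in Combo (log2 7.57 and -7.90, adjusted p = 6.97e-46 and 5.74e-46, edgeR). *Ccl2*, the main chemokine for monocytes, had log2 fold changes of 5.74 and -5.83 in BM and 3.86 and -4.33 in ATMs in the same comparisons. *Ccl5* rose by log2 4.13 in Vehicle ATMs, and *Il6* fell with Combo in both tissues (log2 -3.99 in BM and -4.04 in ATMs). *Ptgs2*, which encodes the prostaglandin synthase COX-2, went against the list, in BM from 876 ± 176 in WT to 52.3 ± 7.86 in Vehicle (log2 -4.06, adjusted p = 1.8e-14, edgeR), and was also lower in Vehicle ATMs (-2.03). The other targets lower in Vehicle, named after their values were seen, were *Il1b* (log2 -3.17), *Plau* (-0.69), *Vcam1* (-0.33) and *Tnfaip2* (-0.13) in BM and *Plau* (-1.53) and *Tnfaip6* (-0.29) in ATMs. The interferon-stimulated sums given above moved with this list, and their part in it was not tested.

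At the receptors, 12 of 16 signaling complex genes were higher and 2 lower in Vehicle than in WT BM, and 11 higher and 0 lower in ATMs. They included genes of necroptosis, *Mlkl* (log2 1.67 in BM and 3.82 in ATMs) and *Ripk3* (1.43 and 2.45), the adaptor *Traf1* in BM (2.11) and the caspase-8 inhibitor *Cflar* in ATMs (2.49). With Combo, *Mlkl* was lower than Vehicle in both tissues (log2 -1.24 and -3.51), as were *Traf1* in BM (-3.06), *Cflar* in ATMs (-2.19) and *Rnf31*, a part of the linear ubiquitin ligase (-0.998 and -1.95). Of 11 kinase genes, 7 were higher and 2 lower in BM and 5 higher and 1 lower in ATMs, led by *Ikbke* (log2 1.81 and 1.67) and *Map3k8* (1.58 and 1.38), with *Tab3* in BM (0.75) and *Tbk1* in ATMs (1.47). With Combo, *Map3k8* fell in both (log2 -1.48 and -1.14), *Ikbke* (-0.91) and the NF-kB-inducing kinase *Map3k14* (-0.50) fell in BM, *Tbk1* fell in ATMs (-1.17) and *Map3k7*, which encodes TAK1, rose in ATMs (1.05).

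Of 12 other feedback inhibitors, 9 were higher and 0 lower in Vehicle BM and 10 higher and 2 lower in Vehicle ATMs. Named by size, they were *Bcl3* (log2 1.61), *Tnip2* (1.07) and *Nfkbib* (0.75) in BM, and *Tnip1* (2.95), *Nfkbib* (1.74) and *Nfkbie* (1.59) in ATMs. With Combo, *Nfkbie* fell in both tissues (log2 -1.51 and -1.42), *Tnip2* (-0.73) and *Nfkbiz* (-0.68) fell in BM, and *Tnip1* (-2.57) and *Nfkbib* (-1.61) fell in ATMs. Among 8 genes of TNF release and mRNA decay, 6 were higher and 1 lower in Vehicle in each tissue. *Timp3*, an inhibitor of ADAM17, rose in both (log2 1.79 in BM and 1.29 in ATMs) and fell with Combo (-2.27 and -2.80), and *Rhbdf2*, which carries ADAM17 to the cell surface, rose in both (0.66 and 2.60) and fell with Combo in ATMs (-1.73). *Zfp36l2* rose in BM (0.94) and fell with Combo (-0.75), and *Zc3h12a*, an RNase that degrades cytokine mRNA, rose in ATMs (1.02). *Zfp36*, which speeds the decay of *Tnf* mRNA, was higher with Combo than with Vehicle in BM (log2 0.99, 30429 ± 304 against 15282 ± 418) and lower in ATMs (-0.95).

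The other ligands and receptors of the TNF family did not move as a group in BM, where 8 of 22 measured were higher and 11 lower in Vehicle than in WT (median -0.17), while in ATMs 13 of 23 were higher and 5 lower (median 0.81). In BM, *Tnfrsf9* (4-1BB) went from 95.8 ± 14.2 in WT to 1219 ± 62.7 in Vehicle and 20.8 ± 18.8 in Combo (log2 3.66 and -5.86), *Tnfrsf4* (OX40) rose by log2 2.01, and *Tnfsf13b*, which encodes the B cell factor BAFF, fell (-2.05). The 10 B cell markers moved with the last, at 45600.3 to 46345 summed in WT and 13737 to 14404 in Vehicle BM, and their part was not tested. *Cd40* and *Tnfsf10* (TRAIL) fell with Combo in BM (log2 -3.65 and -3.04). In ATMs *Tnfsf10* (log2 3.26) and *Cd40* (2.52) rose in Vehicle, *Cd40* fell again with Combo (-2.45) and *Tnfrsf12a* (-2.51) with it. *Tnfsf13*, at 90.5 ± 17.3 in WT, 21.2 ± 7.18 in Vehicle and 104 ± 13.4 in Combo ATMs, went the other way (log2 -2.09 and 2.29).

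**Figure D5:**
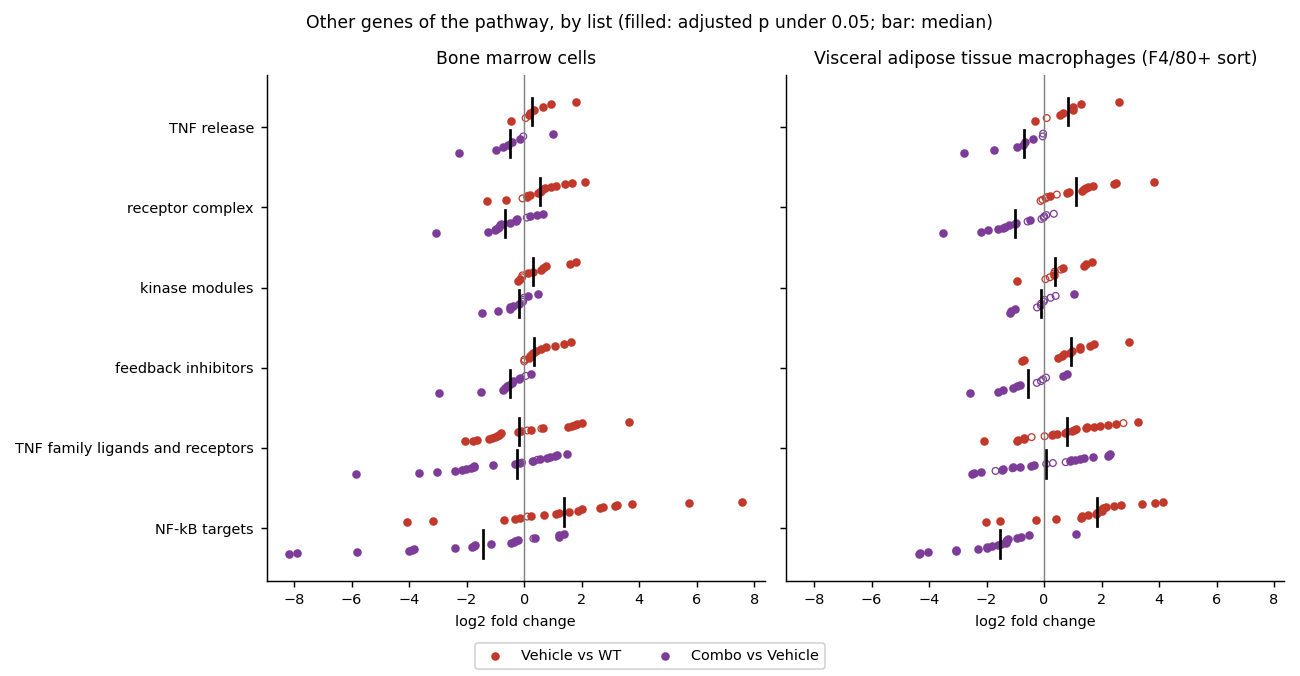
Log2 fold changes of the other pathway genes by list in BM cells (left) and ATMs (right), 1 point a gene, for Vehicle vs WT and Combo vs Vehicle, with filled points at an adjusted p under 0.05 (edgeR) and a bar at the list's median. The NF-kB targets reach furthest, with medians of 1.37 and -1.44 in BM and 1.86 and -1.54 in ATMs.

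The genes whose levels followed *Tnf* most closely over the 15 libraries of a tissue, by Pearson's r of log2 CPM, are given as a description, since the libraries fall into 5 groups and share their depth and cell mix. In BM they were *Adcy7* (0.976), *Usp25* (0.976), *Pitpnm1* (0.975), *Coro2a* (0.974) and *Cyp4f13* (0.968), with *Tnfrsf1b* the seventh of 11390 genes (0.966). In ATMs they were *H2-D1* (0.996), *Ctla2a* (0.994), *Ddit3* (0.993), *Eif4ebp1* (0.993) and *Gadd45b* (0.992). Of the 10 genes, *Nfkbia* was the closest to *Tnf* in ATMs (0.986) and *Tnfrsf1b* in BM, whereas *Rel* was the farthest in ATMs (0.175) and *Nfkb1* in BM (-0.219).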

How the data were processed

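RNA-seq of mouse BM cells and ATMs was analyzed from the raw counts that the authors deposited, 1 table per tissue. Per the study's methods and the submitters' processing notes, the authors aligned paired-end, unstranded reads to mm10 with STAR 2.7.2a and counted uniquely mapped reads on GENCODE M22 genes with featureCounts 2.0.1, keeping mapping qualities from 10 up and counting a read on every gene it overlaps. Low-count genes had been left out before deposit, the smallest gene total over 15 libraries being 55 in BM and 54 in ATMs. Groups and replicate numbers were taken from the labels. The 10 genes and the lists were chosen with earlier results of these data known.

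Counts were fitted in R 4.3.3 with edgeR 4.0.16 (TMM scaling, filterByExpr, which removed 0 genes, and a robust quasi-likelihood F test, 2-sided) in 1 fit of the 15 libraries of a tissue, with Benjamini-Hochberg adjustment over all genes. Genes were past the threshold at an FDR below 0.05 and over 2-fold at an absolute log2 fold change above 1 as well. Differences between tissues were tested with limma 3.58.1 (voom with 1 weight per tissue). Depth was 24876074 to 45300263 counts per library. Counting error was nevertheless not small beside the BM spread for genes with few counts, such as *Relb* in BM (233, 243 and 207 raw counts with GLP1). The edgeR P values rest on an estimate of spread from all 15 libraries of a tissue, drawn toward that of other genes, and on counting error. They measure no other source of error. Deviations of same-numbered libraries were correlated near 0 (-0.030 to 0.052 in BM and -0.022 to 0.034 in ATMs), so replicate number was not a block in the main fits. Exon lengths came from GENCODE M21 (GRCm38) and promoter windows from RefSeq (GRCm38.p6).

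All 10 genes are reported. Of each pathway list, up to 3 genes with the largest absolute log2 fold change among those past the FDR with a mean of at least 50 counts are named in Vehicle vs WT and in Combo vs Vehicle, and the 5 genes (same minimum) closest to *Tnf* by Pearson's r. Markers of cell type and sex appear only as checks. The alternatives tried were the size factors of DESeq2 1.42.0 within edgeR, the DESeq2 test, fits with no filter or with a minimum of 10 counts per library, fits of only the groups compared, the replicate block, and leaving out each library in turn. The edgeR, DESeq2 and limma tests of Vehicle vs WT were tested on simulated data, and the other fits were not.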

Additional observations from a re-analysis of the deposited data

Results flagged for a closer look

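The change of each gene was compared between ATMs and BM by a test of the difference itself (limma, adjusted over 13076 genes), and 18 of 20 differences passed the threshold and are listed here. Values are the log2 fold change in ATMs minus that in BM. Spread between replicates is wider in ATMs (32.5%) than in BM (3.51%), and both comparisons use the same Vehicle libraries, so they are not independent of each other. The other cell types, the interferon-stimulated genes and the sex-linked genes whose values are given above also move differently in the tissues, and their part was not tested.

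In Vehicle vs WT the ligand and the receptors differed by 2.51 for *Tnf* (adjusted p = 5.28e-22, limma), 1.21 for *Tnfrsf1a* and 0.97 for *Tnfrsf1b*, all larger in ATMs. The feedback inhibitors differed less, by 0.49 for *Tnfaip3* and 0.12 for *Nfkbia* (adjusted p = 0.0257, limma). Among the subunits the difference was 0.95 for *Nfkb1*, 0.74 for *Nfkb2*, 0.80 for *Rela* and 0.60 for *Relb*. It was -0.59 for *Rel* (adjusted p = 0.000646, limma), the only negative value of the 10, with *Rel* past the threshold as higher in Vehicle in BM and not past it in ATMs.

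In Combo vs Vehicle the difference was -2.39 for *Tnf* (adjusted p = 5.26e-24, limma), -1.64 for *Tnfrsf1a* and -0.72 for *Tnfrsf1b*. It was 1.20 for *Tnfaip3* (adjusted p = 4.76e-17, limma), which fell less in ATMs, and -0.28 for *Nfkbia*. For the subunits it was -0.67 for *Nfkb1*, 0.82 for *Rel* and -1.62 for *Rela* (adjusted p = 2.31e-19, limma). *Tnfrsf1a* and *Rela* rose with Combo in BM and fell in ATMs.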

How the results depend on the processing

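Under the alternatives to scaling, test, filter, libraries in the fit and block, 124 counts over the 10 genes stayed within 1.5 times, and so did 120 with a library left out. The counts of differences between tissues stayed at 10 and 8. Of single log2 fold changes, 633 of 640 kept direction and side of the threshold, and 584 of 600 with a library left out. These checks covered Vehicle vs WT, each treatment vs Vehicle, Combo vs WT and, with no library left out, the differences between tissues. The remaining comparisons and the departures from additivity were not rerun. Among these was *Tnf* in ATMs for Combo vs anti-IL17A (adjusted p = 0.0498, edgeR). Values that turned sign had not passed the threshold to begin with. GLP1 vs Vehicle for *Tnfrsf1b* in ATMs was -0.0417 with DESeq2's size factors, -0.0416 with DESeq2 and -0.0477 with only the groups compared, and ranged from -0.0273 (without Vehicle 2) to 0.0433 with a library left out. With a library left out, anti-IL17A vs Vehicle for *Rela* in BM ranged from -0.00541 (without Vehicle 1) to 0.0568, and Combo vs Vehicle for *Nfkb1* in ATMs from -0.334 to 0.0358 (without Vehicle 1). Combo vs WT for *Tnfrsf1a* in ATMs passed with only the groups compared (adjusted p = 0.0416, edgeR), as did GLP1 vs Vehicle for *Rela* in BM (adjusted p = 0.0224, edgeR). With at least 10 counts in every library the call for *Rel* in ATM Combo vs WT was lost (adjusted p = 0.0567, edgeR). The cause was not tested.

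Nothing in the labels ties same-numbered libraries together, and correlations between them were near 0. Set against the libraries of other groups, 10 of 15 BM libraries and 5 of 15 ATM libraries deviated most like one of their own number. With 3 replicate numbers, 1 in 3 libraries would do so without any tie, which is the ATM share. The BM share was larger, a hint of a tie in BM, although it did not take in every library. The replicate block changed 1 call, that of *Rel* in ATM Combo vs WT (log2 -0.27, adjusted p = 0.0657, edgeR).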
